A study of Mus musculus with 18 samples.

Results

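Fibronectin, encoded by Fn1, was followed through the reprogramming of mouse embryonic fibroblasts (MEFs) in its level and in all its annotated splicing events. The gene was taken by name: it was 1 of 9435 genes in the expression table of the knockdown (KD) dataset and 1 of 9472 in that of the overexpression (OE) dataset. The splicing table held 190 Fn1 events of 661941 in all. Of these, 187 were covered in all 18 libraries, counting an event as covered where at least 10 reads bore on it. Fn1 was chosen by a measured value of these data, the difference in inclusion of its exon MmuEX0019421 between T7-TIA1 and Empty cells, so every value of that contrast is given as a description with no test.

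The cells were primary MEFs from male embryos of 1 reprogrammable line (genotype Collagen-OKSM, M2rtta+), which all 9 groups shared. Doxycycline switched on the 4 factors of the cassette (OSKM), in medium supplemented with LIF. The KD dataset held 12 libraries in 6 groups. The day-0 group was not infected (NI), and the day-12 groups had received a lentivirus with a scrambled shRNA (shSCR), either of a pair of shRNAs against Cpsf3 (shCPSF3#1, shCPSF3#2) or either of a pair against Hnrnpul1 (shUL1#1, shUL1#2). The OE dataset held 6 libraries in 3 groups, with NI again at day 0 and a retrovirus at day 12 that was either empty (Empty) or expressed T7-tagged TIA1 (T7-TIA1). Each group had 2 libraries, and nothing in the labels says that they came from separate embryos, so the p-values measure the spread between these libraries, which may be technical. One field of the labels gave day 0 for shUL1#2 and day 12 for the NI cells of the OE dataset. The sample titles gave the opposite and were used. Day 12 differed from day 0 in infection and in culture as well as in time. Infected cells were sorted for GFP and grown on irradiated feeder fibroblasts, and day-12 cultures were harvested whole, so feeder RNA can be part of the day-12 values.

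Fibronectin is a large secreted glycoprotein that cells assemble into fibrils of the extracellular matrix and bind through integrins, chiefly the pair made by Itga5 and Itgb1. Its transcript is spliced at 3 places: the extra domains EDB and EDA are each encoded by a single exon that is included or skipped whole, and the variable region begins an exon with alternative 3′ splice sites. Forms with the extra domains are typical of embryonic tissue, wound healing and fibroblasts in culture, and the start of the variable region holds a binding site for another integrin, made by Itga4 and Itgb1. In fibroblast reprogramming the cells lose mesenchymal gene expression and take up epithelial gene expression before they reach pluripotency.

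Fn1 lies on the minus strand of chromosome 1 (mm10, chr1:71585520-71653200), and its annotated transcript has 46 exons. The sequences of the 5 exons that carried most of the variation are given 5′ to 3′ on the strand of the transcript. They were cut from the GENCODE vM21 transcript. EDB is exon 25 (MmuEX0019423, chr1:71613763-71614035, 273 nt) and EDA is exon 33 (MmuEX0019422, chr1:71603660-71603929, 270 nt), and both are shown whole since their inclusion moved over the widest range. Capitals in both mark GAAGA, a purine-rich motif of the kind found in splicing enhancers.
EDB: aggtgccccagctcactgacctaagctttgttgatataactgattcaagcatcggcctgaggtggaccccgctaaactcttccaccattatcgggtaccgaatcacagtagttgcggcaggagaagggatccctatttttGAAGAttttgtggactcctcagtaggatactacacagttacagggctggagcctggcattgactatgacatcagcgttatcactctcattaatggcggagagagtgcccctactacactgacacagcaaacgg
EDA: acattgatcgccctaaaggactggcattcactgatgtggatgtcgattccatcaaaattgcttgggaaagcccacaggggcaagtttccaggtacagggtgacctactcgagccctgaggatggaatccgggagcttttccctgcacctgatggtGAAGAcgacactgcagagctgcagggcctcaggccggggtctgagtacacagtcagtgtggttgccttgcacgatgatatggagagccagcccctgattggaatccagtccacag
GAAGA occurred once in EDB, at position 141 from the exon's first base, and once in EDA, at position 156. It is no rare word: on the exon strand, 50.7% of 4461 internal exons of 250 to 300 nt held it, and 33.5% held it on the opposite strand. Among the 44 internal Fn1 exons, 11 held it on the exon strand and 4 on the opposite strand. Its longer form GAAGAAGA was in neither extra domain and in 3.54% of the exons of that length on the exon strand and 1.17% on the opposite one.

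The variable exon is exon 40 (MmuEX0019420, chr1:71597281-71597747, 467 nt). Its first bases are shown with the 75 bases that the shorter acceptor leaves out in capitals (chr1:71597673-71597747), followed by the next 60 bases in lower case. These 75 bases are 25 whole codons and encode the start of the variable region.
variable exon, start: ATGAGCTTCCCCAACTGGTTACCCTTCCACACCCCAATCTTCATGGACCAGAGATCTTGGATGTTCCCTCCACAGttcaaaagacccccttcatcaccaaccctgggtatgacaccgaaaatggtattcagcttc
The following exons 41 (MmuEX0019425, chr1:71595664-71595802, 139 nt) and 42 (MmuEX0019421, chr1:71593071-71593235, 165 nt) are shown because their inclusion, like that of the variable exon, was lowest in the T7-TIA1 libraries. GAAGA was at position 112 of exon 41 and was not found in exon 42.
exon 41: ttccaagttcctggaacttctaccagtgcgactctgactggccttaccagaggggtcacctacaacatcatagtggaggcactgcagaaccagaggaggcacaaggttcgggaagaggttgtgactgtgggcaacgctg
exon 42: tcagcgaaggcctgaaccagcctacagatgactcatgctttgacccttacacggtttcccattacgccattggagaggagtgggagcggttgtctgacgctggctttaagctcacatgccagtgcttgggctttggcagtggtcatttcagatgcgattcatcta

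Replicate libraries differed unequally across genes. The SD of the log2 difference between replicates was 0.22 in NI of the KD dataset, 0.19 in Empty and 0.20 in T7-TIA1, against 0.44 to 0.59 in the other 6 groups. The targeted genes followed the labels. Cpsf3 was at 86.7 and 118 scaled CPM in shSCR, 38.6 and 49.99 in shCPSF3#1, and 42.4 and 77.1 in shCPSF3#2. Hnrnpul1 was at 156 and 185 in shSCR, 55.7 and 85.8 in shUL1#1, and 38.7 and 63.7 in shUL1#2, and Tia1 at 85.6 and 77.0 in Empty and 613 and 469 in T7-TIA1. Knockdown was thus weakest in the second replicate of shCPSF3#2. Of the marker lists used to check the cell type, 6 of 7 fibroblast genes were listed in both tables (S100a4 was not). Their summed level was 9992 to 10321 scaled CPM in NI of the KD dataset and 2214 to 5036 in its day-12 libraries. In shSCR against NI 2 of the 6 fell, beside 22% of all genes, with a median log2 fold change of −0.53. The 2 were Acta2 and Vim, which fell by 3.57 and 1.81 (limma adjusted p = 0.000655 and 0.00262). In the OE dataset the summed level was 9258 to 13232 in NI and 2768 to 3148 in the day-12 libraries. There 4 of the 6 fell in Empty against NI, beside 23.6% of all genes, with a median of −1.06. None of the 8 pluripotency markers passed the expression filter of the authors in either table.

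Fn1 alone made up 0.455% to 1.38% of the signal of the listed genes, depending on the library. In the KD dataset its expression was 5205 and 5535 scaled CPM in NI, 7711 and 5912 in shSCR, 12061 and 13637 in shCPSF3#1, 11046 and 7042 in shCPSF3#2, 9556 and 6580 in shUL1#1, and 12865 and 8602 in shUL1#2. Day-12 libraries were all above the NI libraries, and the order of the means was NI, shSCR, shUL1#1, shCPSF3#2, shUL1#2 and shCPSF3#1. From shSCR on, each group overlapped its neighbour in that order. Each knockdown library lay above the shSCR library of the same replicate number, although the labels do not say that a number marks a batch. In the OE dataset the values were 4996 and 12121 in NI, 5068 and 6656 in Empty, and 5000 and 5506 in T7-TIA1, so that all 3 groups overlapped and the second NI library stood apart with the highest value.

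**Figure D1:**
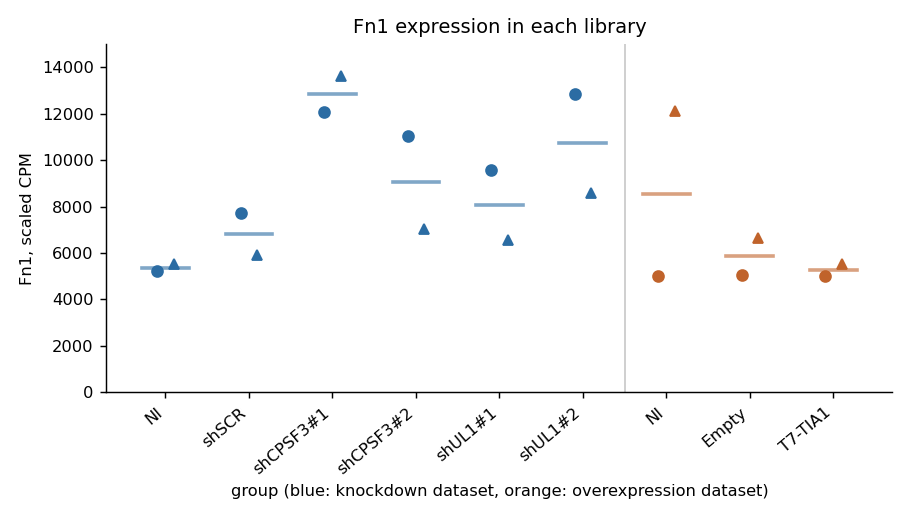
Fn1 expression in scaled CPM (y axis, linear, from 0) in each library of the 9 groups (x axis), with the KD dataset in blue and the OE dataset in orange. Circles are replicate 1, triangles replicate 2 and short lines the means. The shCPSF3#1 libraries lie at 12061 and 13637, while the NI libraries of the OE dataset lie at 4996 and 12121.

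No comparison of Fn1 expression passed an adjusted p of 0.05 in limma fitted over all genes on log2(scaled CPM + 1) without a replicate block. shSCR differed from NI by a log2 fold change of 0.33 (SE 0.34, adjusted p = 0.455), where 22.5% of all genes were higher and 22% lower. The mean of the shCPSF3 groups was above shSCR by 0.66 (SE 0.29, adjusted p = 0.125), where 16.7% of genes were higher and 9.35% lower. The mean of the shUL1 groups was above shSCR by 0.44 (SE 0.29, adjusted p = 0.357), where 7.31% were higher and 3.15% lower. These knockdown comparisons share the shSCR libraries. shCPSF3#1 alone was above shSCR by 0.93 (SE 0.34, adjusted p = 0.0632), a difference that passed at 0.0450 without shCPSF3#2 replicate 1 and at 0.0480 without shCPSF3#2 replicate 2, which enter the fit as part of its spread. It also passed with the replicate number as a block (0.93, adjusted p = 0.0252). Between the shCPSF3 and the shUL1 groups the log2 difference was 0.22 (SE 0.24, adjusted p = 0.730), with 0.0424% of genes called.

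Empty differed from NI by −0.42 (SE 0.43, adjusted p = 0.455), in a comparison with 22.8% of genes higher and 23.6% lower. That value rested on a single library: it was −1.06 (adjusted p = 0.00617) without OE NI replicate 1 and 0.22 (adjusted p = 0.380) without OE NI replicate 2. T7-TIA1 was at a log2 difference of −0.15 from Empty, with overlapping libraries. In bulk RNA, fewer cells with high Fn1 and less Fn1 per cell cannot be told apart.

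Markers of other cells also differed between the KD groups. The summed level of Cd68 and Lyz2, markers of macrophages, was 7 to 9 scaled CPM in NI, 162 to 279 in shSCR, 1288 to 1736 in shCPSF3#1, 410 to 1243 in shCPSF3#2, 247 to 507 in shUL1#1 and 552 to 966 in shUL1#2. They were 2 of the 4 immune markers fixed, and Ptprc and Cd14 were not listed. Krt8 and Krt18, keratins of simple epithelia and 2 of 8 epithelial markers, summed to 16 to 20 in NI, 298 to 539 in shSCR, 32 to 42 in shCPSF3#1, 39 to 206 in shCPSF3#2, 68 to 221 in shUL1#1 and 51 to 90 in shUL1#2. Tek, the 1 of 4 endothelial markers listed, was at 1.15 and 1.51 in NI, 24.96 and 29.7 in shSCR, 18.3 to 63.9 in the shCPSF3 groups, 41.9 and 65.7 in shUL1#1 and 83.8 and 143 in shUL1#2. The part of these cells in the Fn1 values was not tested.

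Partners of fibronectin in the matrix were tested in the same fits. Of 15 genes for proteins that bind fibronectin or its fibrils, 8 fell and 0 rose in shSCR against NI, beside 22% of all genes lower and 22.5% higher, with a median log2 fold change of −1.12 against 0.00049 over all genes. Among them, periostin (Postn) fell by 2.59, the collagen and elastin crosslinker Lox by 2.51 and the fibrillar collagen genes Col5a2 and Col1a1 by 2.42 and 2.30 on the log2 scale, with adjusted p from limma of 0.0111, 0.0223, 0.000287 and 0.000811. In Empty against NI 11 of the 15 fell and 1 rose (median −1.87), beside 23.6% and 22.8% of all genes. Lox fell by 4.14 and Tnc (tenascin C) by 3.49 (adjusted p = 0.00085 and 0.000894), while the transglutaminase gene Tgm2 was the 1 that rose, by 1.03 (adjusted p = 0.0362).

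Against shSCR, 10 of the 15 rose with shCPSF3 and 0 fell (median 1.503), beside 16.7% of all genes higher. With shUL1, 8 rose and 0 fell (median 1.12), beside 7.31% higher. Postn rose by 2.86 with shCPSF3 and 2.66 with shUL1 (limma adjusted p = 0.00908 and 0.0226), and Col3a1 by 2.54 and 2.48 (adjusted p = 0.00563 and 0.0128). Between the shCPSF3 and shUL1 means, 0 of the 15 passed. The summed level of the list was 37121 to 37685 scaled CPM in NI, 13906 to 22955 in shSCR and 23252 to 45321 in the knockdown groups of the KD dataset. It was 40788 to 69260 in NI, 11025 to 13337 in Empty and 9254 to 10460 in T7-TIA1. The fibroblast markers lay between 2829 and 5036 in the knockdown libraries and between 2214 and 2884 in shSCR, and the part of feeder or other fibroblasts in these values was not tested.

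**Figure D2:**
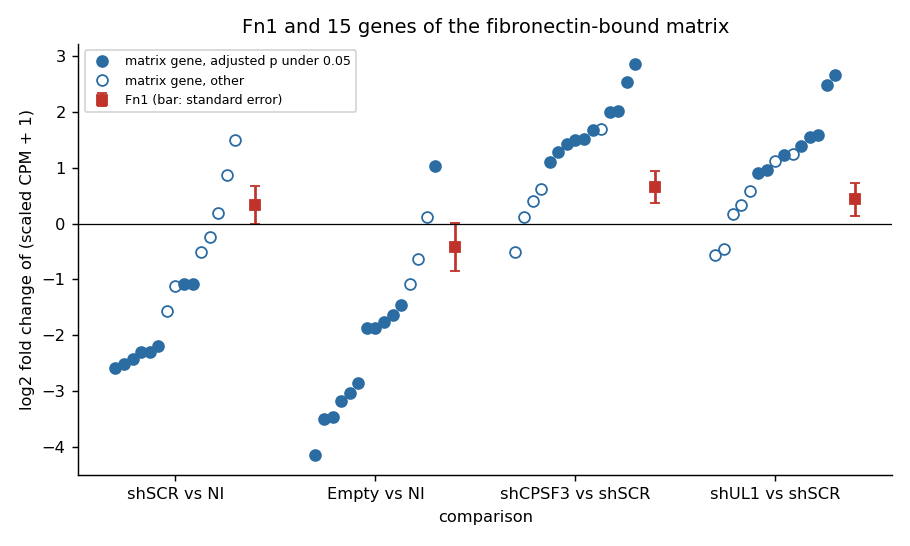
Log2 fold change on the log2(scaled CPM + 1) scale (axis in log2 units) of 15 matrix genes and of Fn1 in 4 comparisons; filled circles have an adjusted p under 0.05, open circles do not, and the red square with its bar is Fn1 with its SE. Most matrix genes lie below 0 in shSCR and Empty against NI and above 0 in the knockdowns against shSCR, and Fn1 is at 0.33, −0.42, 0.66 and 0.44.

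Of 10 listed receptor genes, 3 fell and 1 rose in shSCR against NI, beside 22% and 22.5% of all genes, so the counts were not far from the background. The main fibronectin integrin subunits Itga5 and Itgb1 fell by 2.75 and 1.93, Itgav fell by 1.22 and Itgb5 rose by 0.72 (limma adjusted p = 0.000138, 0.000266, 0.0348 and 0.0445). In Empty against NI, 6 of 9 fell and 1 rose, beside 23.6% and 22.8% of all genes. Itga5 fell by 3.27 (adjusted p = 0.00184), Itgb1 fell by 1.70 (adjusted p = 0.00385), and the heparan sulphate co-receptor Sdc4 rose by 0.56 (adjusted p = 0.0137). With shCPSF3, 3 of 10 rose and 0 fell, beside 16.7% of all genes higher. These were Itga9, a subunit that binds the EDA domain, by 1.13, Itga5 by 0.72 and Itgb1 by 0.68 (adjusted p = 0.00862, 0.0432 and 0.0281). With shUL1, 0 of 10 passed, and Itga9 was at 0.63 (adjusted p = 0.0935). Itga4, whose product binds the variable region, was not listed in either table.

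Genes of focal adhesions, the sites where integrins join the cytoskeleton, fell in 7 of 9 cases in shSCR against NI and in 6 of 9 in Empty against NI, and 0 rose in either, beside 22% and 23.6% of all genes lower. Zyx (zyxin) fell by 2.27 and 2.12 (limma adjusted p = 0.000384 and 0.00212). Tns1 (tensin) fell by 1.61 in shSCR against NI (adjusted p = 0.0003), and it was the 1 member that rose with shCPSF3, by 0.85 (adjusted p = 0.0078), and with shUL1, by 0.69 (adjusted p = 0.0296). Of all genes, 16.7% were higher with shCPSF3 and 7.31% with shUL1, and 1 of 9 is no result about the list. Fn1 itself was at 0.33 in shSCR against NI and did not pass, in libraries where its main receptor genes and most of the listed matrix and adhesion genes fell.

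Among cassette exons of Fn1, EDA had the widest range of inclusion. PSI, the percent of transcripts that include an exon, was 64.9 and 64.1 in NI of the KD dataset, 47.8 and 37.5 in shSCR, 23.3 and 25.8 in shCPSF3#1, 25.7 and 27.5 in shCPSF3#2, 38.4 and 31.2 in shUL1#1, and 25.8 and 21.6 in shUL1#2. NI was highest and did not overlap any day-12 group, shSCR came next and overlapped shUL1#1 only, and the other 3 groups lay together at the low end. In the OE dataset PSI was 65.9 and 47.6 in NI, 32.4 and 27.0 in Empty, and 29.8 and 28.4 in T7-TIA1, with the last pair of groups overlapping. The second NI library, which stood apart in expression, was also lower here than the first. Each value rested on 16852 to 45350 junction reads, and its 95% Wilson interval was at most ±0.857 points, for counting error only.

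EDA fell by 21.8 points of PSI from NI to shSCR. On the log2 odds of inclusion, in a limma fit over all events with the inclusion and exclusion reads of each library, the change was −1.29 (SE 0.24, adjusted p = 0.00405). It was −0.99 (adjusted p = 0.0636) without shSCR replicate 2. EDA fell by 27.0 points from NI to Empty (log2 odds −1.65, SE 0.32, adjusted p = 0.0153). That call was lost without OE NI replicate 1 (−1.11, adjusted p = 0.320), without Empty replicate 1 (−1.84, adjusted p = 0.0941) and without Empty replicate 2 (−1.46, adjusted p = 0.0792), always in the same direction.

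EDA inclusion was lower again with knockdown than in shSCR. For the mean of the shCPSF3 groups the difference was −17.1 points (log2 odds −1.11, SE 0.21, adjusted p = 0.00787) and all 4 libraries lay below both shSCR libraries. It was −0.81 (adjusted p = 0.181) without shSCR replicate 1. By shRNA, shCPSF3#1 gave a limma adjusted p of 0.0156 and shCPSF3#2 one of 0.0742. With the replicate number as a block, shCPSF3#2 passed as well (−1.04, adjusted p = 0.0474). The call for shCPSF3#1 was lost without shSCR replicate 1 (adjusted p = 0.180) and without its own replicate 1 (0.136) or 2 (0.0734). For the mean of the shUL1 groups the difference was −13.4 points (log2 odds −0.87, SE 0.21, adjusted p = 0.0473). That call was marginal: leaving out any library of the dataset other than shSCR replicate 2 put the adjusted p between 0.0513 and 0.495. shUL1#2 gave 0.0240 and shUL1#1 gave 0.455. The call for shUL1#2 was lost without shSCR replicate 1 (adjusted p = 0.294) and without its own replicate 1 (0.102) or 2 (0.174). The shCPSF3 and shUL1 means did not differ beyond their error (log2 odds −0.24, SE 0.17, adjusted p = 0.814). The study had listed EDA among events dependent on both factors from these same libraries, so these calls are not independent evidence of the direction.

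PSI of EDB lay below that of EDA in every library. PSI was 31.8 and 31.6 in NI, 20.01 and 21.4 in shSCR, 15.8 and 14.2 in shCPSF3#1, 15.2 and 16.9 in shCPSF3#2, 25.2 and 23.6 in shUL1#1, and 12.1 and 13.2 in shUL1#2. The shRNAs against Hnrnpul1 thus lay on opposite sides of shSCR, with both shUL1#1 libraries above it and both shUL1#2 libraries below it. In the OE dataset PSI was 37.9 and 30.2 in NI, 24.1 and 23.3 in Empty, and 15.6 and 18.7 in T7-TIA1, with no overlap between groups. The junction reads numbered 14422 to 41628 per library, for a 95% Wilson interval of at most ±0.901 points.

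EDB fell by 11.0 points from NI to shSCR (log2 odds −0.83, SE 0.21, limma adjusted p = 0.0243). Each of the 4 libraries compared was needed for that call, and the adjusted p was 0.124 and 0.127 without NI replicate 1 or 2 and 0.147 and 0.0705 without shSCR replicate 1 or 2. From NI to Empty the difference was −10.4 points (log2 odds −0.73, SE 0.27, adjusted p = 0.223). Against shSCR it was −0.51 in log2 odds for shCPSF3 (SE 0.18, adjusted p = 0.144) and −0.28 for shUL1 (SE 0.18, adjusted p = 0.512), the latter an average of 0.30 for shUL1#1 and −0.86 for shUL1#2 (adjusted p = 0.607 and 0.0797). The shCPSF3 and shUL1 means differed by −0.23 (adjusted p = 0.787).

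**Figure D3:**
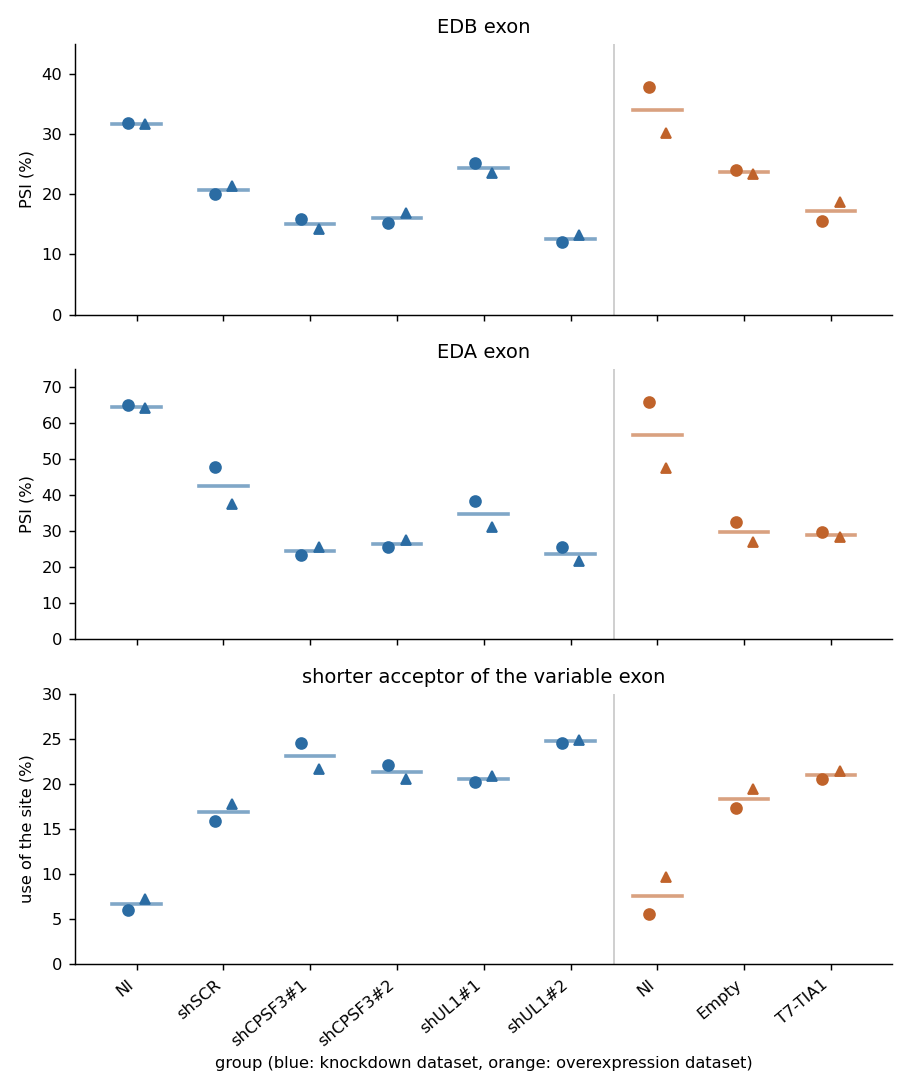
PSI of EDB (top), PSI of EDA (middle) and use of the shorter acceptor of the variable exon (bottom), all in percent on linear axes, in each library of the 9 groups. Circles are replicate 1, triangles replicate 2 and lines the means, with the KD dataset in blue and the OE dataset in orange. Within each dataset EDB and EDA are highest in the NI libraries, although EDA of the second OE NI library (47.6) is level with that of the first shSCR library (47.8), and the shorter acceptor is lowest in NI (5.59 to 9.68).

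The third variable place was the start of exon 40. The donor of exon 39 was joined either to the full exon, to an acceptor 75 nt further in, or to one 360 nt further in that removes the whole variable region, both keeping the reading frame. The 75-nt-shorter acceptor took 6.08% and 7.22% of the reads of its event in NI, 15.9% and 17.8% in shSCR, 24.5% and 21.7% in shCPSF3#1, 22.1% and 20.6% in shCPSF3#2, 20.3% and 20.9% in shUL1#1, and 24.6% and 24.9% in shUL1#2. It took 5.59% and 9.68% in NI of the OE dataset, 17.3% and 19.5% in Empty, and 20.6% and 21.4% in T7-TIA1. NI was lowest in both datasets, and in both the control infection lay below every other day-12 group.

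Use of the 75-nt-shorter acceptor rose from NI to shSCR by 10.2 points (log2 odds 1.51, SE 0.22, limma adjusted p = 0.000368). It rose from NI to Empty by 10.8 points (log2 odds 1.49, SE 0.29, adjusted p = 0.0176). The call in the OE dataset was lost without OE NI replicate 1 (1.07, adjusted p = 0.338), Empty replicate 1 (1.60, adjusted p = 0.120) or Empty replicate 2 (1.39, adjusted p = 0.0718). Against shSCR the log2 odds were 0.49 with shCPSF3 (SE 0.19, adjusted p = 0.166) and 0.53 with shUL1 (SE 0.19, adjusted p = 0.180), which did not pass although no library overlapped shSCR. The shCPSF3 and shUL1 means differed by −0.03 (adjusted p = 0.982).

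The acceptor 360 nt further in (first base at chr1:71597387) is counted in a separate event with 205 to 3128 reads per library. Its share of that event rose from NI to shSCR (log2 odds 2.76, SE 0.38, limma adjusted p = 0.000316), and the difference from NI to Empty was 1.64 (SE 0.44, adjusted p = 0.0857). Over the reads of the 7 acceptors of both events together, a share formed after the values were seen, it took 1.65% and 2.12% in NI, 5.72% and 7.68% in shSCR, and 6.47% to 10.8% in the 8 knockdown libraries. In the OE dataset it took 1.65% and 3.64% in NI, 7.30% and 7.81% in Empty, and 7.22% and 7.56% in T7-TIA1. The full exon correspondingly went from 92.1% and 90.5% in NI to 79.1% and 75.7% in shSCR and 66.8% to 74.2% in the knockdown libraries.

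In both control infections at day 12, the PSI values of EDA and EDB were below those of NI and the use of the 75-nt-shorter acceptor was above it, although EDB in Empty did not pass the test. All 3 met the rule of the study (a PSI difference of at least 10 with at least 5 points between the nearest libraries) in shSCR against NI, which 1.18% of covered events met, and in Empty against NI, which 0.658% met. In shCPSF3 against shSCR EDA alone of the Fn1 events met it (background 0.396%). In shUL1 against shSCR (background 0.333%) and in shCPSF3 against shUL1 (background 0.00508%) no Fn1 event did. EDA with shUL1 (−13.4 points) missed it because shUL1#1 replicate 1 (38.4) lay above shSCR replicate 2 (37.5). For dependence on a factor the study used another rule. It asked for at least 10 points between the shRNA mean and shSCR in the change since NI, with both shRNAs selecting the event. That rule set no range between knockdown and shSCR libraries.

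Exons 40, 41 and 42 were nearly always included. PSI of exon 42 (MmuEX0019421) was 97.8 and 98.1 in NI, 97.7 and 97.3 in shSCR, 97.6 and 97.4 in shCPSF3#1, 97.3 and 97.2 in shCPSF3#2, 98.6 and 98.0 in shUL1#1, and 98.3 and 97.5 in shUL1#2. In the OE dataset it was 98.1 and 98.2 in NI, 97.4 and 97.2 in Empty, and 89.9 and 91.1 in T7-TIA1, the 2 lowest values of all 18 libraries. The difference of T7-TIA1 from Empty was −6.76 points, and between −7.36 and −6.16 with any 1 of the 4 libraries left out. This is the value for which the gene was chosen. It missed the 10 points of the study rule, which 0.272% of covered events met in this contrast, and no Fn1 event met it.

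The same libraries stood apart at the neighbouring exons. Exon 40 had a PSI of 99.4 and 99.4 in NI, 98.7 and 98.6 in Empty, and 95.3 and 96.1 in T7-TIA1. Exon 41 had 99.1 and 99.3, 98.5 and 98.3, and 94.3 and 95.5. In the KD dataset both exons stayed between 98.1 and 99.3 in every library. The reads joining across an exon were many: those skipping exon 42 numbered 273 and 602 in NI, 431 and 610 in Empty, and 1667 and 1657 in T7-TIA1, and those skipping exon 41 numbered 130 and 241, 254 and 378, and 916 and 833. Junctions that skip 1 of these exons can skip its neighbours as well, so the 3 values are not independent. Exons 40 and 41 are not multiples of 3 in length, while the 3 exons together are 771 nt, or 257 whole codons.

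**Figure D4:**
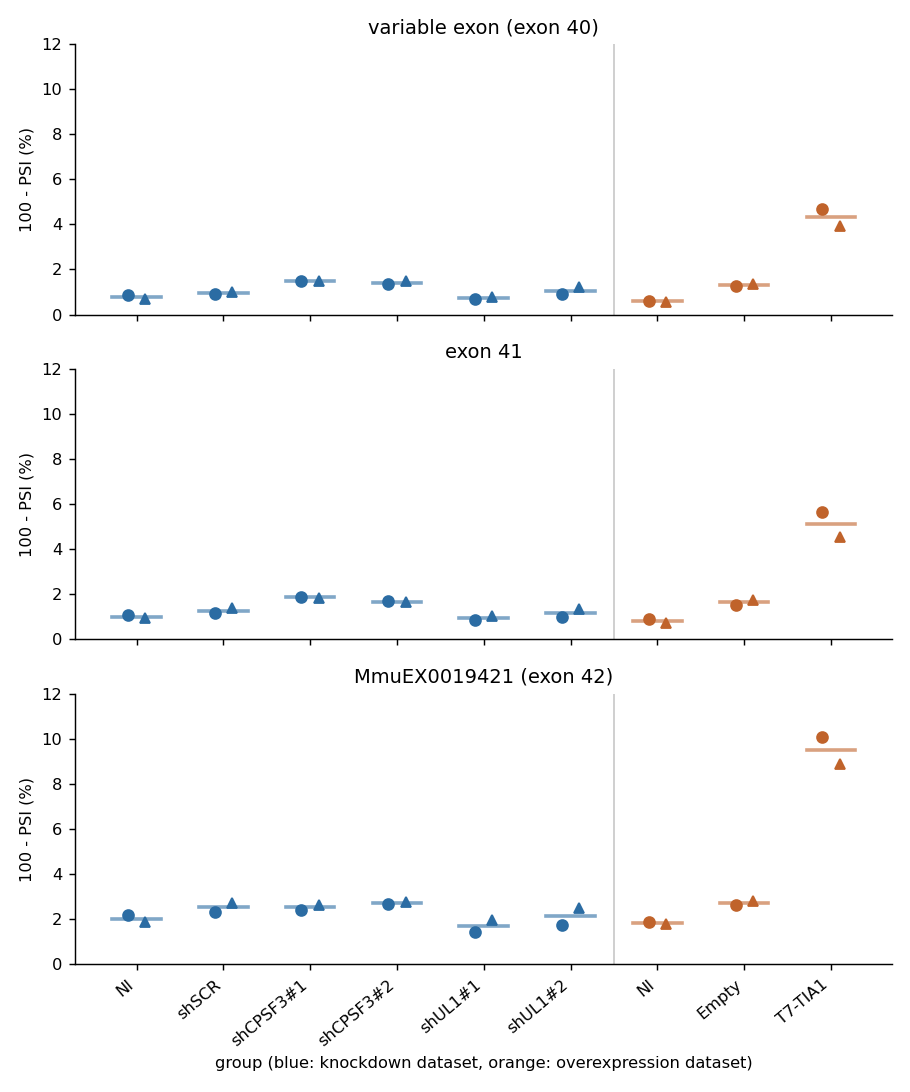
Skipping of exons 40, 41 and 42 of Fn1 (100 minus PSI, in percent, linear axis from 0) in each library of the 9 groups; circles are replicate 1, triangles replicate 2 and lines the means. The T7-TIA1 libraries are the highest at each exon, with 10.1 and 8.89 at exon 42 against 2.65 and 2.80 in Empty.

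The other variable places of the gene are given for the same contrast. EDB differed by −6.54 points with no overlap between the groups, the 75-nt-shorter acceptor by 2.63 points, also with no overlap, and EDA by −0.61 points with overlapping libraries. In the remaining tests of exon 42, shSCR differed from NI by −0.33 in log2 odds (limma adjusted p = 0.458), shCPSF3 from shSCR by −0.06 (adjusted p = 0.925), shUL1 from shSCR by 0.43 (adjusted p = 0.350) and Empty from NI by −0.57 (adjusted p = 0.329). Exon 40 fell by 0.735 points from NI to Empty (limma log2 odds −1.18, SE 0.27, adjusted p = 0.0387), and exon 41 was at −1.05 (adjusted p = 0.0721). The upstream reads counted for exon 40 equal those of the full acceptor (10755 in OE NI replicate 1 and 9366 in Empty replicate 1). Reads of its shorter acceptors are left out there, so PSI of exon 40 does not measure skipping alone.

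Most of the gene was spliced without choice. Of 44 cassette exon events listed, 43 were covered, and 37 of these had a PSI of at least 97 in every library. The 38-nt exon MmuEX1010548 was at most at 0.01. No alternative 5′ splice site (31 of 33 covered) and no retained intron (all 45 covered) had a group mean between 5 and 95, against 4 of 68 alternative 3′ splice site events. Of these, 3 were at the start of exon 40. The other was the acceptor that begins EDB (MmuALTA0007325-6/6), which took 93.58% to 95.63% of the reads of its event and did not pass in any of the 5 comparisons (limma adjusted p of 0.619 to 0.972). Retention of the 45 introns ranged from 0 to 3.56% with a median of 0.04%, and the highest value belonged to the intron before EDA. Outside the 5 exons with printed sequences, the 37 other exons differed by −0.18 to 0.36 points in shSCR against NI, by −0.08 to 0.19 in Empty against NI and by −0.14 to 0.04 in T7-TIA1 against Empty.

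**Figure D5:**
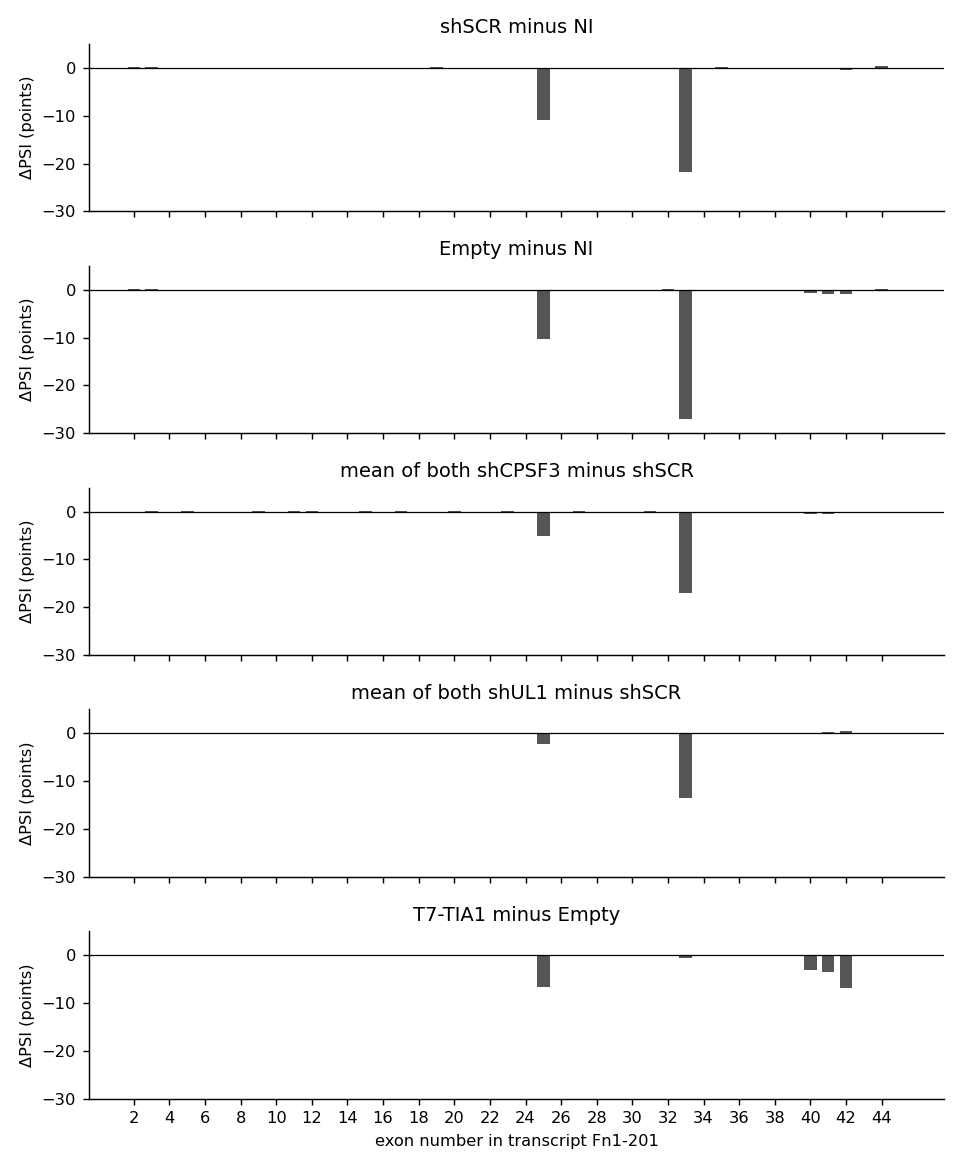
Difference in PSI (y axis, points) at each of 42 exons of Fn1, placed by exon number in the annotated transcript (x axis), in 5 comparisons. Bars stand out at EDB (exon 25) and EDA (exon 33) when day 12 is set against NI, at EDA and, by less, EDB under knockdown (EDB −5.17 with shCPSF3 and −2.24 with shUL1), and at EDB and exons 40 to 42 in T7-TIA1 against Empty, while the other 37 exons stay within 0.36 points of 0.

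Calls by limma on the reads were counted over all tested Fn1 events. In shSCR against NI, 15 of 150 tested Fn1 events were called (10%), 6 higher and 9 lower, beside 5.9% of all events tested. Besides EDA, EDB and the acceptors of exon 40, they were 4 exons near full inclusion and 3 introns. Acceptors of the same event are shares of the same reads but are counted singly, so the number called exceeds that of separate changes. Exon 44 (MmuEX6025178) rose from a PSI of 99.55 and 99.65 to 99.95 and 99.97 (log2 odds 3.21, adjusted p = 9.6e-06), a change of under 1 point. Exons 2, 3 and 35 rose by 2.40, 1.29 and 2.60 in log2 odds from values of 99.56 or more (adjusted p = 0.0107, 0.0171 and 0.00712). The introns near the start of the gene fell, the first of them (MmuINT0065277) from 1.25% and 0.78% to 0.27% and 0.20% (log2 odds −2.06, adjusted p = 0.00111). The number called was 8 without NI replicate 1 or without shSCR replicate 1 and 9 without shSCR replicate 2.

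In shCPSF3 against shSCR, 6 of 150 were called (4.00%), all lower, beside 2.82% of all events. They were EDA, exon 44 (log2 odds −1.31, adjusted p = 0.0176) and 4 introns. The intron between exons 40 and 41 (MmuINT0065271) fell from 0.76% and 0.74% in shSCR to 0.18% to 0.35% (log2 odds −1.67, SE 0.24, adjusted p = 0.00103), and the next (MmuINT0065272) from 1.70% and 1.46% to 0.67% to 1.19% (log2 odds −0.90, adjusted p = 0.0211). The other introns, MmuINT0065273 and MmuINT0065276, fell by 1.096 and 1.22 in log2 odds (adjusted p = 0.0185 and 0.0206). This number was 2 or 3 without either shSCR library, shCPSF3#1 replicate 1 or shCPSF3#2 replicate 1, and 12 without shCPSF3#2 replicate 2, the library with the weakest knockdown.

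In shUL1 against shSCR, 2 of 150 were called (1.33%), both lower, beside 1.35% of all events, a share like the background. They were EDA and the intron between exons 40 and 41, which fell to 0.24% to 0.36% (log2 odds −1.32, SE 0.24, adjusted p = 0.00857). Leaving out 1 library gave 0 to 3, with 0 without shSCR replicate 1. Between shCPSF3 and shUL1, 0 of 150 were called by limma, beside 0.000651% of all events. In Empty against NI the called events were EDA, exon 40 and the full and 75-nt-shorter acceptors, and these acceptors are shares of the same reads. That was 4 of 119 called (3.36%), 1 higher and 3 lower, beside 1.05% of all events. That number was 0 without OE NI replicate 1, Empty replicate 1 or Empty replicate 2.

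Of the 9 splicing factors fixed as known regulators of the extra domains, 7 were listed. Esrp1 and Esrp2, the epithelial regulators, were not. At most 1 of the 7 passed in each direction in any comparison, beside 22% to 23.6% of all genes in shSCR and Empty against NI, 16.7% higher and 9.35% lower with shCPSF3, and 7.31% higher with shUL1. A count of 1 is no result about the list. In shSCR against NI the SR protein gene Srsf5 rose by 0.69 and Rbfox2 fell by 0.40 on the log2 scale (limma adjusted p = 0.00149 and 0.0151). With shCPSF3 the pair moved the other way, Rbfox2 up by 0.64 and Srsf5 down by 0.32 (adjusted p = 0.0034 and 0.0395), and with shUL1 Rbfox2 rose by 0.41 (adjusted p = 0.0278). In Empty against NI Srsf7 rose by 0.50 (adjusted p = 0.043). Their part in the inclusion of the extra domains was not tested.

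The genes whose log2 level was most like that of Fn1 over the 12 KD libraries were Creg1, Pla2g15 and Grn (Pearson r = 0.98 each), Psap and Dnajc18 (0.97 each). Over the 6 OE libraries their r with Fn1 was −0.20, 0.73, 0.77, 0.85 and 0.94. The least alike were Cwf19l1 and Cfap298 (−0.97 each) and Kctd3 (−0.96), with −0.93, −0.69 and −0.54 in the OE dataset. These values describe libraries that share groups, cultures and a normalization. None of the matrix or receptor genes of the fixed lists was among them.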

How the data were processed

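RNA-seq of 18 libraries (9 groups of 2) was analysed, grouped by the sample titles. Reads had been mapped to mm10 with STAR 2.7.1a. The deposited gene values are a signal, CPM from edgeR 3.16.5 relative to a library size that the authors scaled, for genes above a minimum of CPM and of variation. The planned tests assumed unscaled CPM and were left as they were. Splicing had been quantified with strand-specific vast-tools, and the authors deposited PSI in percent with the reads behind it.

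Expression was tested with limma 3.58.1 (R 4.3.3) on log2(value + 1), and events on log2((inclusion reads + 1)/(exclusion reads + 1)) with robust variances and weights of 1/(counting variance + 0.1), for events with at least 10 reads in every library of the dataset and at least 10 inclusion and 10 exclusion reads summed over it. Each dataset was 1 fit over all groups, tests were two-sided, and the Benjamini-Hochberg adjustment ran over all genes or events, with calls at 0.05. The 2 tables were normalized separately and were not compared. The scripts were tested on simulated data. The PSI rule of the study for a change in splicing (10 points, range 5) was applied beside the test. It was also applied to knockdown against control, for which the study used another rule. Python 3.11.15 was used for counts and sequences.

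Named were Fn1, EDB, EDA, MmuEX0019421, the acceptors of the variable region, Fn1 events with a group mean PSI of 5 to 95 or a call, the targeted genes, the 2 to 4 members of each list with the largest changes, and the 5 genes most and 3 least like Fn1. The gene, its members and the lists were chosen with earlier results of these data known. Alternatives changed the pseudocount, filters, weights, scale, samples in the fit and the replicate block, or left out 1 library. No genome sequence or protein table was used here.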

Additional observations from a re-analysis of the deposited data

Results flagged for a closer look

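The exon EDB (MmuEX0019423) drew attention because the shRNAs against Hnrnpul1 moved it to opposite sides of the scrambled control. The mean PSI difference from shSCR was 3.64 points in shUL1#1 and −8.12 points in shUL1#2, with both libraries of each shRNA on its side of both shSCR libraries. The direct comparison of shUL1#1 with shUL1#2 gave a log2 odds difference of 1.16, with an adjusted p of 0.619 in limma over all events. Against shSCR, shUL1#2 passed in limma on PSI in percent (adjusted p = 0.0384) but not on the log2 odds, and shUL1#1 passed on neither. Hnrnpul1 was at 55.7 and 85.8 scaled CPM in shUL1#1 and at 38.7 and 63.7 in shUL1#2. Whether the depth of knockdown has a part in the difference was not tested.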

How the results depend on the processing

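These counts cover 34 results of the main comparisons and of T7-TIA1 against Empty, without the results by single shRNA. Of 551 values under alternatives, 468 were unchanged, which includes tests that passed neither before nor after. Counts of events were held unchanged if near the value reported, and untested values if within the replicate spread. A call was lost in 40 and gained in 2, a tested value changed sign in 3, and 38 counts or untested values moved further. In 6 the sign was opposite to that reported: 1 each for Fn1 expression in Empty against NI and in T7-TIA1 against Empty (−0.34 to 0.050 with 1 library left out), 2 for EDA in T7-TIA1 against Empty, and 1 each for MmuEX0019421 with shCPSF3 and the 75-nt-shorter acceptor in shCPSF3 against shUL1. Without the weights the log2 odds were EDB −0.83 (adjusted p = 0.256), EDA −1.29 (0.129) and the 75-nt-shorter acceptor 1.51 (0.0723) in shSCR against NI, EDA −1.11 (0.220) with shCPSF3 and −0.87 (0.402) with shUL1, and EDA −1.65 (0.313) and the acceptor 1.496 (0.318) in Empty against NI; the Fn1 events called were 3, 0, 0 and 0 in these 4 comparisons. With no minimum of inclusion or exclusion reads, EDA was −1.11 (0.0575) with shCPSF3, −0.87 (0.141) with shUL1 and −1.65 (0.177) in Empty against NI, where the acceptor was 1.49 (0.155), and 1, 0 and 0 events were called. On PSI in percent, EDA was −17.1 (0.0732) with shCPSF3, −13.4 (0.164) with shUL1 and −27.0 (0.400) in Empty against NI, the acceptor was 10.8 (0.285) there, and EDB with shCPSF3 passed at −5.18 (0.0468); 6, 1, 0 and 0 events were called. With only the groups compared in the fit, EDB in shSCR against NI was −0.83 (0.0634), EDA with shUL1 −0.87 (0.0772), and 1 event was called with shUL1. By shRNA, the EDA call for shCPSF3#1 was lost without weights (limma adjusted p = 0.250), with no minimum of reads (0.0762) and on PSI in percent (0.0984). For shUL1#2 it was lost in the same settings (0.355, 0.141 and 0.132) and with only the groups compared (0.101). These causes were not tested.

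With 1 library left out, Fn1 expression in Empty against NI ranged from −1.06 to 0.22, EDB in shSCR against NI from −0.89 to −0.77, and EDA from −1.60 to −0.99 in shSCR against NI, −1.42 to −0.81 with shCPSF3, −1.18 to −0.57 with shUL1 and −2.20 to −1.11 in Empty against NI, where the acceptor ranged from 1.07 to 1.92. Events called ranged from 8 to 17 in shSCR against NI, 2 to 12 with shCPSF3, 0 to 3 with shUL1 and 0 to 5 in Empty against NI. Signs changed for values near 0: MmuEX0019421 with shCPSF3 (−0.17 to 0.062), the acceptor in shCPSF3 against shUL1 (−0.093 to 0.023) and EDA in T7-TIA1 against Empty (−3.35 to 2.13 points). By shRNA, MmuEX0019421 ranged from −0.12 to 0.12 for shCPSF3#1 (−0.073 without its replicate 1) and from −0.23 to 0.0061 for shCPSF3#2, and Fn1 expression from −0.037 to 0.50 for shUL1#1.

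The labels number the replicates, but do not say that a number marks a batch. Deviations of same-numbered libraries correlated across genes at 0.674 to 0.949 among day-12 KD groups, −0.127 to 0.0218 between NI and those groups, and 0.171 to 0.308 in the OE dataset. Across events the range was −0.0209 to 0.207 and 0.0221 to 0.125. With the replicate block, 13 events were called with shCPSF3 and 8 in Empty against NI, EDA passed for shCPSF3#2 (−1.04, adjusted p = 0.0474) and Fn1 expression for shCPSF3#1 (0.93, adjusted p = 0.0252). Duplicates limit the precision, and the counting intervals of EDA and EDB were at most ±0.857 and ±0.901 points.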
